A study of Bos taurus with 129 samples.

Results

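The SLC39A genes encode the ZIP transporters, and the 10 family members SLC39A1, SLC39A3, SLC39A6, SLC39A7, SLC39A8, SLC39A9, SLC39A10, SLC39A11, SLC39A13 and SLC39A14 were taken by gene symbol from a whole blood count table of 32395 bovine genes. They were listed because the trace mineral supplements fed in the study differed in their source of zinc and manganese. Levels of these 10 genes were examined in RNA-seq libraries from 26 stocker steers, 59 libraries from healthy steers and 70 from steers treated for bovine respiratory disease (BRD), with a blood sample at 5 time points from day 0 to day 60 (days 13, 28 and 45 between them). All 10 passed the filter on low counts, which left 18937 genes for the tests between days and cattle.

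ZIP proteins move zinc into the cytosol, either from outside the cell or out of intracellular stores, and the SLC30A exporters move it the opposite way. ZIP8 and ZIP14, encoded by SLC39A8 and SLC39A14, also carry manganese and other divalent metals. In leukocytes, zinc supply bears on lymphocyte signalling and on the response of myeloid cells to infection.

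Steers labelled INR received cobalt, copper, manganese and zinc as sulfates, and steers labelled AAC received these minerals complexed with amino acids. COMBO steers received the complexed sources and also an oral trace mineral and vitamin drench before shipment, on day 0 and with treatment for disease. The disease label was healthy for 12 steers, 4 in each supplement group. It was BRD, for disease treated at any time in the trial, for 14 steers, with 4 in AAC, 3 in COMBO and 7 in INR. When a BRD steer was treated is not given in the labels, so a day 0 library labelled BRD was not necessarily taken from a sick animal. All steers were newly received high-risk cattle of unknown history, and no unsupplemented steers were sampled. They arrived the day before day 0, were vaccinated and dewormed on day 0, and were vaccinated again between the day 13 and day 28 samples. Steers entered the pens with their mineral feeds on day 0, so the day 0 libraries do not reflect the mineral feeds, although COMBO steers had by then been drenched before shipment. AAC pens 2 and 8 each held 2 healthy and 2 BRD steers at enrollment. The healthy COMBO steers were in pen 5 and the BRD COMBO steers in pen 6, so pen and disease label cannot be told apart in COMBO.

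Total counts per library ranged from 31613545 to 61692136, with a median of 44268685. The authors removed the day 13 library of AAC healthy animal 48, which is why AAC has 1 library fewer. The day 13 library of INR healthy animal 50 stood apart, with a median correlation of 0.943 with the other libraries against a typical 0.966. The low RNA integrity of a late library of INR BRD animal 40 is known from the study's methods. Marker genes of neutrophils, monocytes, T cells, B cells, platelets and red cells were all present, as they should be in whole blood, and the neutrophil marker CSF3R was not in the table.

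The levels below are counts scaled by the TMM method to a common library size (CPM). They are not divided by transcript length, so they were compared between libraries and not between genes. Among the members at the cell surface, SLC39A1, a broadly expressed zinc importer, ranged from 24.9 to 62.3 CPM over all libraries with a median of 36.7. SLC39A3, its close relative, ranged from 7.42 to 18.2 CPM with a median of 11.2. Neither gene was low in count, since the smallest library counts were 1030 and 300.

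SLC39A6 and SLC39A10 encode surface importers that can act together as a complex. SLC39A6 had a lowest level of 41.2 CPM and a median of 72 CPM in a 3.11-fold range, and SLC39A10 ranged from 29.9 to 95.2 CPM (median 55.8). SLC39A14, which carries zinc, manganese and iron, ranged from 10 to 27 CPM (median 17).

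SLC39A8, the other manganese carrier, was the member with the fewest counts and the widest range. Its level ran from 0.513 to 13.7 CPM with a median of 1.82, which is a 26.8-fold range and corresponded to 27 to 557 counts per library. At its median of 79 counts, counting error alone gave a coefficient of variation of 11%. The other 9 members spanned between 1.83-fold and 3.79-fold over the same libraries.

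The remaining members act mainly on internal membranes. SLC39A7, which releases zinc from the endoplasmic reticulum, ranged from 50.2 to 91.9 CPM (median 65.6), and SLC39A9, found at the Golgi and the cell surface, from 60 to 110 CPM (median 78.4). Both had 1.83-fold ranges. SLC39A13, which moves zinc out of vesicles, ranged from 19.8 to 37.2 CPM (median 25), and SLC39A11, the most divergent member of the family, from 11.5 to 43 CPM (median 23.9).

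**Figure D1:**
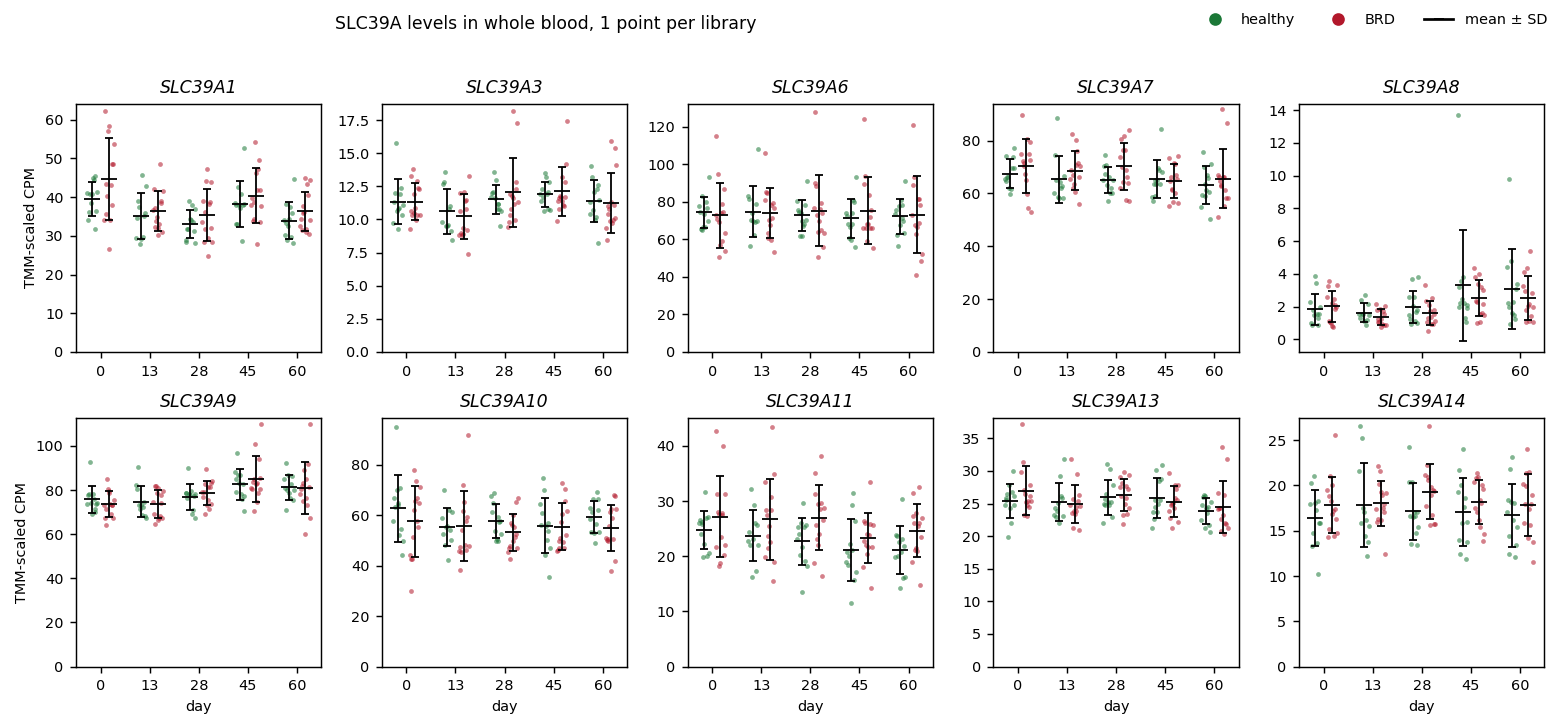
TMM-scaled CPM of each of the 10 SLC39A genes (y axis, from 0) by day of the trial (x axis), with 1 point per library, green for healthy and red for BRD, and black bars for the mean ± SD. Healthy and BRD points overlap at each day for all 10 genes, SLC39A1 is highest at day 0, and 2 SLC39A8 libraries near 10 CPM or above stand over the rest.

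The clearest changes were over time. Each later day was compared with day 0 within animals, with a term for each steer. The 4 comparisons share the day 0 libraries, so they are not independent of each other, and day 0 is also the day of vaccination and the day after arrival. Calls were made at an adjusted p below 0.10 (edgeR quasi-likelihood F-test with Benjamini-Hochberg adjustment over all genes tested). At day 13, 3 of 10 members fell and 0 rose, where 15.9% of all tested genes fell. On that day 6289 of 18937 genes were called in either direction, which is a larger share than 3 of 10. At day 28, 2 members rose and 1 fell, beside 36% of genes called in either direction. At day 45, 2 rose and 1 fell, beside 15.8% of genes that rose and 15.2% that fell. At day 60, 2 rose and 4 fell, beside 33.4% of genes called in either direction. The median absolute log2 change of the members was 0.06, 0.06, 0.09 and 0.11 on the 4 days, beside 0.13, 0.13, 0.12 and 0.13 over all tested genes.

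SLC39A1 fell at 3 of the 4 later days. Its lowest, median and highest levels were 26.7, 40.9 and 62.3 CPM at day 0, 27.8, 35 and 48.6 at day 13, and 24.9, 33.7 and 47.3 at day 28. At day 45 they were 27.8, 38.1 and 54.2 CPM, and at day 60 they were 28.2, 34.3 and 45 CPM. The ranges overlapped on every day, while 18 of 25 steers were lower than their own day 0 at day 13, 24 of 26 at day 28, 17 of 26 at day 45 and 23 of 26 at day 60. SLC39A1 fell by 14.4% at day 13 (95% interval -19.6 to -8.82%, adjusted p = 9.08e-05), by 18.5% at day 28 (-23.4 to -13.2%, adjusted p = 1.26e-07) and by 16.1% at day 60 (-21.1 to -10.7%, adjusted p = 6.57e-06). At day 45 the difference was -6.55% and missed the threshold narrowly (adjusted p = 0.105). That day 45 value passed with DESeq2 (adjusted p = 0.0623), with RLE size factors (0.0672) and with a stricter filter on low counts (0.0376). The value passed as well without the day 13 library of animal 50, and without the day 60 library of animal 40. It also passed in 14 of 26 refits without a single animal (without animal 3, 9, 17, 18, 23, 27, 29, 30, 34, 46, 48, 50, 54 or 57), at adjusted p values of 0.05 to 0.098.

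SLC39A9 moved the opposite way late in the trial. Its lowest, median and highest levels were 64, 73.7 and 92.9 CPM at day 0, 67, 78.4 and 90 at day 28, 70.5, 83 and 110 at day 45, and 60, 80.5 and 110 at day 60. The groups overlapped, and 23 of 26 steers were above their own day 0 at day 45 and 21 of 26 at day 60. SLC39A9 rose by 11.9% at day 45 (95% interval 8.19 to 15.8%, adjusted p = 1.33e-07) and by 8.17% at day 60 (4.56 to 11.9%, adjusted p = 0.000204). At day 28 it rose by 3.99% (adjusted p = 0.0741), with 18 of 26 steers higher, and that call was lost without animal 10, 21, 29 or 40 (adjusted p up to 0.212). At day 13 the difference was -1.1% (adjusted p = 0.679).

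SLC39A11 fell at days 45 and 60. Its lowest, median and highest levels were 18.3, 26.1 and 42.7 CPM at day 0, 11.5, 21.9 and 33.4 at day 45, and 14.2, 22.9 and 32.6 at day 60. On both later days 23 of 26 steers were below their own day 0, although the ranges of the days overlapped widely. The fall was 15% at day 45 (log2 fold change -0.23, SE 0.0384, adjusted p = 8.92e-07) and 12.1% at day 60 (log2 fold change -0.19, SE 0.0384, adjusted p = 8.92e-05). At days 13 and 28 the differences were -3.57% and -4.7%, and neither passed the test (adjusted p = 0.332 and 0.171). The reads of SLC39A11 are less certain, since the RefSeq table has the gene overlapping COG1 and SSTR2, and the strand setting of the counting is not given in the sources used here. SLC39A10 likewise overlaps DNAH7, and the other 8 members overlap no listed gene.

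SLC39A8 was higher at days 45 and 60. Its lowest, median and highest levels were 0.752, 1.8 and 3.86 CPM at day 0, 0.751, 1.48 and 2.72 at day 13, and 0.513, 1.6 and 3.8 at day 28. At day 45 they were 1.01, 2.25 and 13.7 CPM, and at day 60 they were 0.945, 2.18 and 9.82 CPM. Most libraries of the late days lay within the range of day 0, with 19 of 26 steers above their own day 0 at day 45 and 18 of 26 at day 60. SLC39A8 rose by 38% at day 45 (95% interval 11.4 to 71.9%, adjusted p = 0.0199) and by 37.1% at day 60 (10.4 to 70%, adjusted p = 0.0233). These 2 calls held without any single animal (adjusted p at most 0.094), including the 3 animals with the highest libraries. They did not pass in the 12 healthy steers alone (adjusted p = 0.12 and 0.112) or in the 14 BRD steers alone (0.326 and 0.339), which are smaller groups. At day 13 SLC39A8 fell by 22.1% (adjusted p = 0.0913), with 15 of 25 steers lower.

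The other calls over time were small and less stable. SLC39A13 fell by 7.59% at day 60 (95% interval -12.3 to -2.68%, adjusted p = 0.0167) and held without any single animal, but it did not pass in the healthy steers alone (log2 fold change -0.083, adjusted p = 0.324). SLC39A3 fell by 7.88% at day 13 (adjusted p = 0.0826), SLC39A14 rose by 6.71% at day 28 (adjusted p = 0.0911) and SLC39A7 fell by 6.82% at day 60 (adjusted p = 0.0743). These last calls passed neither in the healthy steers alone nor in the BRD steers alone. Leaving out the day 13 library of animal 50 ended the day 13 calls of SLC39A3 (adjusted p = 0.138) and SLC39A8 (adjusted p = 0.128). Single animals also decided these calls. The SLC39A3 call was lost without animal 7, 9, 16, 18, 30, 39, 41, 42, 49 or 50 (adjusted p up to 0.214), and the day 13 SLC39A8 call without animal 6, 7, 9, 21, 27, 29, 31, 39, 41, 42, 43, 50 or 54 (up to 0.214). The SLC39A14 call was lost without animal 10, 18, 21, 23, 27, 29, 31, 34, 46, 48 or 57 (up to 0.183), and the SLC39A7 call without animal 9, 16, 17, 21, 30, 34, 39 or 41 (up to 0.193).

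SLC39A6 and SLC39A10 were called on none of the 4 days. The day differences of SLC39A6 lay between -1.59% at day 60 and 1.2% at day 13, with 95% intervals that stayed within -6.34 and 6.35%. For SLC39A10 they lay between -6.56% and -3.48%, and the intervals reached -13.8% and 4.65%.

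**Figure D2:**
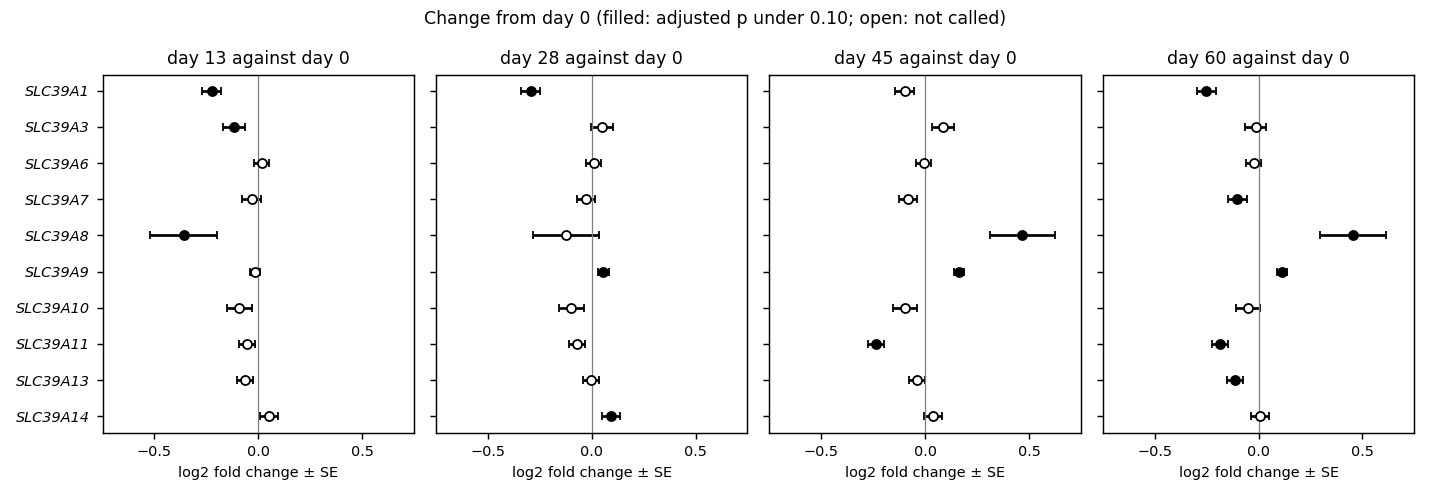
Log2 fold change from day 0 ± SE (x axis) of each SLC39A gene (y axis) at days 13, 28, 45 and 60, from the fit with a term for each animal, with filled points for adjusted p under 0.10. SLC39A1 is below 0 in all 4 panels, at -0.22, -0.29, -0.10 and -0.25, and the bars of SLC39A8 are the widest.

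Marker genes of the blood cell types changed over the same days, and red cell markers moved most. The summed red cell markers, 7 of 7 in the table and none at a median of 0, had a median of 226 CPM at day 0 (range 27.1 to 6970) and of 6090, 2400, 4550 and 1930 CPM on the 4 later days. They were above the steer's own day 0 in 24 of 25, 23 of 26, 25 of 26 and 24 of 26 steers, and platelet markers in 21 of 25, 22 of 26, 20 of 26 and 22 of 26. The summed neutrophil markers, of which 7 of 8 were in the table and none was at 0, had a median of 1810 CPM at day 0 (range 1040 to 9050) and of 1360, 1180, 1210 and 1120 CPM on the 4 later days. They were above the steer's own day 0 in 1 of 25, 2 of 26, 6 of 26 and 2 of 26 steers. The summed monocyte markers, 5 of 5 in the table, had a median of 3340 CPM at day 0 (1220 to 9340) and of 2420, 2340, 2580 and 2340 CPM later. The summed B cell markers, 5 of 5 in the table, had medians of 1830, 1910, 2040, 2220 and 2070 CPM from day 0 to day 60, and 4 of the 5 genes rose at day 45. Within animals, after removal of each animal's mean, the Pearson correlation over all libraries with the neutrophil sum was 0.671 for SLC39A1, 0.349 for SLC39A8 and -0.406 for SLC39A9, and with the B cell sum it was 0.486 for SLC39A9 and -0.459 for SLC39A11. The largest for SLC39A8 was with the summed eosinophil markers (0.472), of which 3 of 4 were in the table. These points share animals, days and libraries. The part of the cell types in the changes over time was not tested, and in bulk blood fewer cells of a type and less RNA per cell cannot be told apart.

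Between cattle, no member was called in the comparisons of disease label over all supplements or of supplement over both disease labels. Comparisons of disease label within a supplement, added later, are given below with SLC39A10. For BRD against healthy, 0 of 10 members passed on each of the 5 days, beside 0.0158% of all tested genes at day 0, 0% at day 13, 0.00528% at day 28, 0% at day 45 and 0.00528% at day 60. With counts summed over days so that each steer counted once, 0 of 10 members and 0% of 20640 genes passed. At an unadjusted p under 0.05, 716 genes (3.78%) stood at day 13, 800 (4.22%) at day 45 and 1123 (5.44%) over all days. DESeq2 called 36, 31 and 16 genes in these 3 comparisons, with no member among them. Limma with voom called 0 genes at days 13 and 45.

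The intervals show what size of difference these 26 steers allow. Over all days, BRD minus healthy lay between -2.48 and 18.8% for SLC39A1, -8.33 and 7.95% for SLC39A3, -12.1 and 13.9% for SLC39A6, and -2.3 and 9.1% for SLC39A7. The interval was -5.85 to 7.4% for SLC39A9, -5.76 to 7.45% for SLC39A13, -15 to 3.79% for SLC39A10 and -2.49 to 24.6% for SLC39A14. It was widest for SLC39A8, at -33.2 to 22%, and for SLC39A11, at -4.78 to 34.3%. Single differences with an unadjusted p under 0.05 were SLC39A1 at day 0 (log2 difference 0.21, adjusted p = 0.652), SLC39A10 at day 0 (-0.19, adjusted p = 0.656) and SLC39A14 at day 28 (0.21, adjusted p = 0.573), all edgeR values. At day 0 SLC39A1 ranged from 31.7 to 45 CPM in the 12 healthy steers (median 40.7) and from 26.7 to 62.3 CPM in the 14 BRD steers (median 43.3), so the BRD range contained the healthy one.

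The change from day 0 was also compared between the disease labels. For BRD minus healthy change, 0 of 10 members and 0% of all genes passed at each later day. The genes at an unadjusted p under 0.05 numbered 619, 863, 801 and 596 (3.27%, 4.56%, 4.23% and 3.15% of tested genes). DESeq2 called 10, 5, 7 and 5 genes, none of them a member.

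Any difference among the 3 supplements was tested on each day, again with 0 of 10 members called. The share of all genes called was 0.106% at day 0, 0.306% at day 13, 0.0422% at day 28, 0.037% at day 45 and 0.0211% at day 60. On each day 1 member had an unadjusted p under 0.05 in edgeR, namely SLC39A13 at day 0, SLC39A14 at days 13 and 60, SLC39A6 at day 28 and SLC39A8 at day 45, with adjusted p values from 0.418 to 0.832. Over all days, 0 of 10 members were called between AAC and INR (0.00969% of genes), between COMBO and INR (0%) and between AAC and COMBO (0%). In the latter 2 comparisons 839 (4.06%) and 1388 (6.72%) genes had an unadjusted p under 0.05, and DESeq2 called 23 and 37 genes, none of them a member. The test that the time course differed among supplements called 0 of 10 members and 0.0106% of genes.

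**Figure D3:**
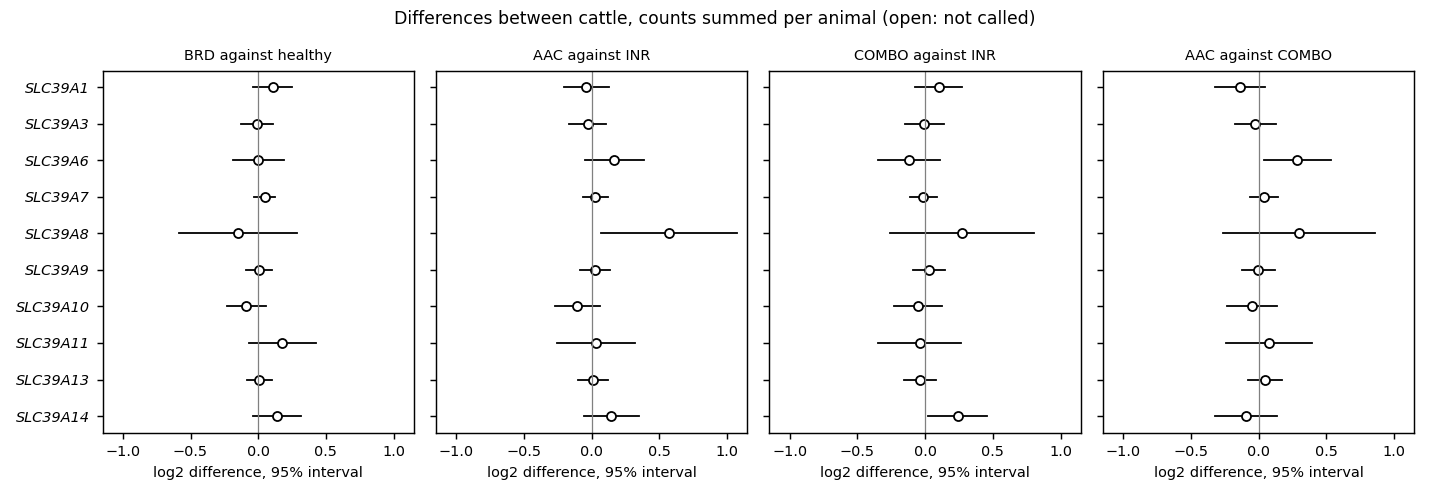
Log2 difference with its 95% interval (x axis) for each SLC39A gene (y axis), from counts summed per animal, for BRD against healthy, AAC against INR, COMBO against INR and AAC against COMBO. All points are open because none passed an adjusted p of 0.10, and the SLC39A8 interval is the widest in each panel.

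SLC39A8 was the member with the lowest unadjusted p among the supplement tests. Its animal means over all days had a lowest, median and highest value of 1.51, 2.65 and 4.91 CPM in the 8 AAC steers, 0.953, 2.25 and 2.94 in the 7 COMBO steers, and 1.07, 1.58 and 3.06 in the 11 INR steers. The groups overlapped, with the upper AAC steers above all others. The AAC minus INR difference was 0.57 on the log2 scale (edgeR, SE 0.244, 95% interval 0.07 to 1.07 on that scale, unadjusted p = 0.0274) and did not hold after adjustment over all genes (edgeR, adjusted p = 0.617).

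At day 45 SLC39A8 stood at 1.99, 2.75 and 13.7 CPM (lowest, median and highest) in AAC, 1.01, 3.38 and 3.97 in COMBO, and 1.1, 1.61 and 3.21 in INR. AAC and COMBO had the higher medians, and all 3 ranges overlapped. The edgeR test among supplements gave an unadjusted p = 0.00254 and an adjusted p = 0.524, and without animal 34 the unadjusted p rose to 0.0717. The increase over day 0 at day 45 was seen in 7 of 8 AAC, 5 of 7 COMBO and 7 of 11 INR steers. At day 60 it was seen in 7 of 8, 3 of 7 and 8 of 11 steers.

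Single libraries carried the highest SLC39A8 values. AAC healthy animal 34 had 13.7 CPM (557 counts) at day 45, AAC healthy animal 49 had 9.82 CPM (421 counts) at day 60, and INR BRD animal 27 had 5.4 CPM (212 counts) at day 60. In the order from the highest of all libraries, these 3 libraries ranked 11, 59 and 14 for the neutrophil sum and 58, 88 and 24 for the monocyte sum. NFIL3 and IFNGR1, the genes with the levels most like SLC39A8, ranked 6 and 7 in the library of animal 34, 7 and 16 in that of animal 49, and 9 and 5 in that of animal 27.

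SLC39A10 showed a difference by disease label within the AAC steers that was not seen in the other supplements. It was noticed in the refit with AAC steers alone, and its tests below were added after that value had been seen. It was largest at day 0, the day of entry into the pens, when AAC and INR name the feed a steer was assigned to and not a feed it had been given for any time. SLC39A10 is known to be needed for B cell survival and for signalling from the B cell receptor. At day 0 the 4 AAC BRD steers had 29.9, 42.5, 42.7 and 44.1 CPM and the 4 AAC healthy steers had 57.8, 63.1, 66.9 and 95.2 CPM. In pen 2 the BRD steers were at 29.9 and 42.7 and the healthy ones at 57.8 and 95.2, and in pen 8 the BRD steers were at 42.5 and 44.1 and the healthy ones at 63.1 and 66.9, so the groups did not overlap within either pen.

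The AAC groups stayed apart on the later days. The BRD and healthy ranges were 38.1 to 47.4 and 52.5 to 70.2 CPM at day 13, 42.8 to 47.9 and 61.3 to 68.9 at day 28, 45.8 to 49.9 and 56 to 74.8 at day 45, and 49.7 to 51 and 53 to 62.8 at day 60. Each BRD library was below each healthy library of the same day on all 5 days. Over all tested genes, 194 of 18937 (1.02%) had AAC groups that did not overlap on any of the 5 days, 158 of them lower in BRD, and SLC39A10 was the only one of the 10 members.

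Within AAC, SLC39A10 was lower in BRD by 0.83 on the log2 scale at day 0 (log2 difference -0.83, SE 0.153, adjusted p = 0.00304), where 3.08% of all genes were called, and at day 28 (-0.52, SE 0.152, adjusted p = 0.0832), where 1.52% were called. Each steer gave 1 library per day, but the fit for single days had no term for each animal. Its error estimate thus treated libraries of a steer on different days as independent, which limits these p values. The differences at day 13 (-0.46, adjusted p = 0.32), day 45 (-0.44, adjusted p = 0.19) and day 60 (-0.23, adjusted p = 0.535) did not pass, and 0.29%, 0.354% and 0% of genes did on those days. At day 60, where no gene passed in edgeR, SLC39A3 (-0.32, adjusted p = 0.355) and SLC39A6 (0.49, adjusted p = 0.197) had an unadjusted p under 0.05, and a fit to the AAC steers alone called 501 genes and no member. With counts summed per steer the difference was -0.48 (SE 0.0788, adjusted p = 0.0253), where 5.06% of genes were called. SLC39A10 was the 1 member called in each of the 3 called comparisons. These are edgeR values from the fits to all steers, and the AAC steers alone gave -0.82 at day 0 (adjusted p = 0.00127), -0.50 at day 28 (0.0261), -0.43 at day 45 (0.0666) and -0.47 over all days (0.0836), where 9.46%, 5.23%, 3.75% and 4.28% of genes were called.

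In the fit to the AAC steers alone, each of the 8 steers was left out in turn. The comparisons within AAC from the fits to all steers were not repeated in this way. The day 0 call was kept in 8 of 8 refits (-0.90 to -0.65, adjusted p from 0.000911 to 0.0098) and the day 28 call in 8 of 8 (adjusted p from 0.0229 to 0.0928). The call over all days was kept in 2 of 8 and was lost without animal 9, 21, 34, 41, 48 or 49, at adjusted p values up to 0.209, while the difference stayed between -0.51 and -0.40.

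In the other supplements the groups overlapped. At day 0 SLC39A10 ranged from 44.1 to 71 CPM in the 4 healthy INR steers and from 55.4 to 73.6 CPM in the 7 BRD INR steers (log2 difference 0.25, SE 0.135, adjusted p = 0.839). In that INR comparison 0.00528% of all genes were called. In COMBO SLC39A10 ranged from 52 to 70.2 CPM in the 4 healthy steers and from 51.3 to 77.8 CPM in the 3 BRD steers (0.02, adjusted p = 0.97). The COMBO comparison called 5.54% of all genes, a larger share than the 3.08% within AAC. The difference between the AAC and the INR effect at day 0 was -1.08 on the log2 scale (SE 0.204, adjusted p = 0.0144, with 0.0211% of genes called). The edgeR test over the 3 supplements passed at day 0 (adjusted p = 0.000984, with 10.7% of genes called) and over all days (adjusted p = 0.0716, with 1.3% called). It did not pass at day 13, 28, 45 or 60 (adjusted p = 0.139, 0.234, 0.252 and 0.941).

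**Figure D4:**
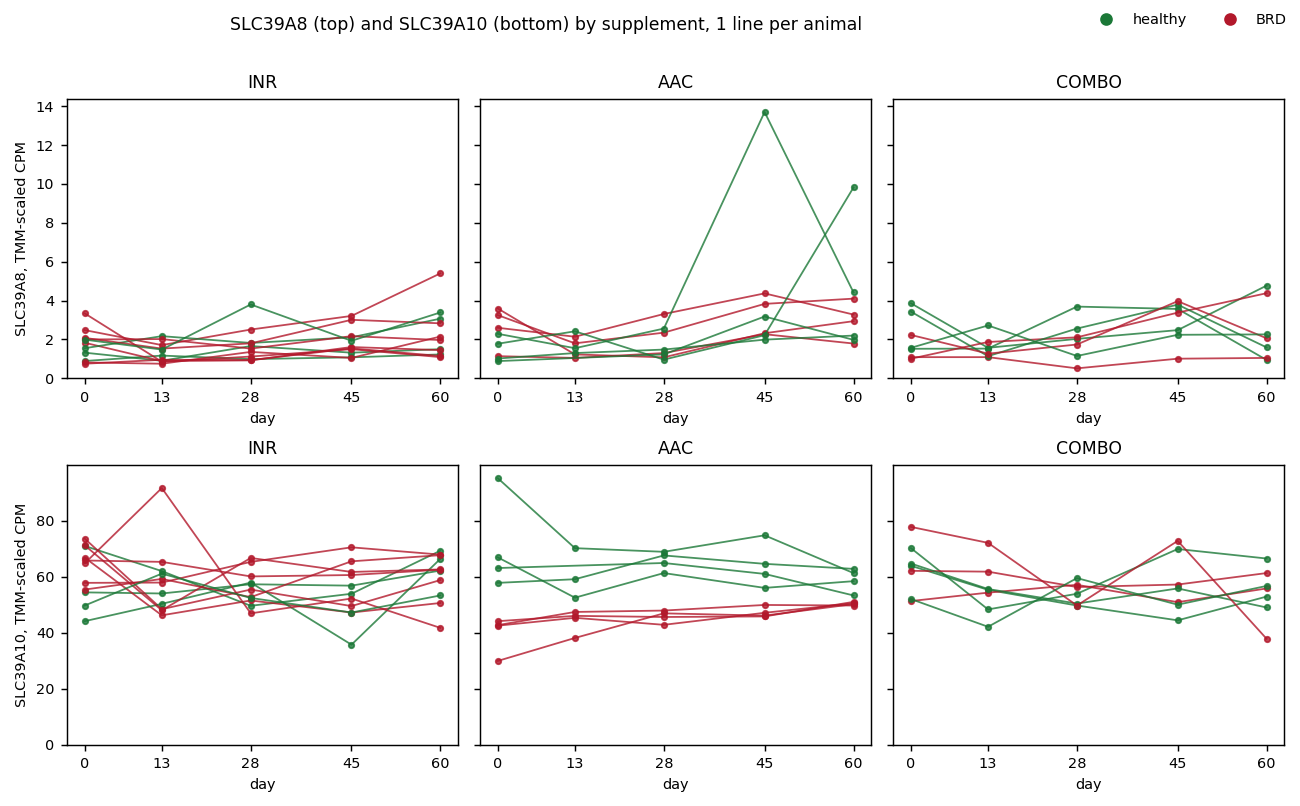
TMM-scaled CPM (y axis, from 0) of SLC39A8 in the upper panels and SLC39A10 in the lower panels by day (x axis) for INR, AAC and COMBO, with 1 line per animal, green for healthy and red for BRD. SLC39A8 reaches 13.7 and 9.82 CPM in 2 AAC healthy steers, and the SLC39A10 lines of AAC BRD steers lie below those of AAC healthy steers on all 5 days.

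B cell markers also differed between the AAC BRD and AAC healthy steers. The summed level of the 5 markers, all in the table, was 872 to 1330 CPM in AAC BRD and 1750 to 3270 CPM in AAC healthy steers at day 0, 952 to 1630 and 1730 to 2660 at day 13, and 868 to 1500 and 2000 to 3310 at day 28. At day 45 it was 846 to 1670 and 2080 to 3190 CPM, and at day 60 it was 926 to 1570 and 1940 to 2940 CPM. The AAC groups did not overlap in B cell markers on any day. The COMBO groups did not overlap at days 0, 13 and 28 either, but there BRD was higher. In COMBO BRD and healthy steers the sums were 2030 to 3160 and 746 to 1790 CPM at day 0. At day 13 they were 2190 to 2230 and 1580 to 1910 CPM, and at day 28 they were 2210 to 3010 and 1700 to 1960 CPM. The COMBO groups overlapped at days 45 and 60, and the INR groups on every day. Summed monocyte markers at day 0 were 3490 to 9340 CPM in AAC BRD and 2290 to 3160 CPM in AAC healthy steers, and T cell markers were 968 to 1620 and 669 to 1130 CPM. The AAC monocyte sums also did not overlap at day 28 (2780 to 5820 and 1800 to 2360 CPM) and day 60 (3060 to 4110 and 1840 to 2780 CPM). The AAC T cell sums did not overlap at day 28 (1080 to 1520 and 737 to 1070 CPM) and day 45 (1210 to 1510 and 686 to 1050 CPM). In each of these BRD was higher, and on the remaining days the sums overlapped. Over all libraries the correlation of SLC39A10 was 0.483 with the B cell sum, -0.462 with the T cell sum and -0.429 with the monocyte sum. After removal of each animal's mean these were -0.044, -0.367 and -0.132. The part of B cell number, or of the other cell types, in the SLC39A10 difference was not tested.

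The variance of log2 CPM was split by sums of squares into shares between steers, between days and the rest. These shares are not adjusted for the 26 steers against 5 days, which by itself favours the share of steers. The shares of steers and of days were thus not weighed against each other, and each was read beside its median over all tested genes. Between-animal differences made up 81.2% of the variance of log2 CPM for SLC39A6, 80.5% for SLC39A11 and 72.8% for SLC39A14, beside a median of 42.1% over all tested genes. In these 3 members most of the variance was thus between steers rather than between bleeds of a steer. The share was 51.1% for SLC39A9, 49.9% for SLC39A1, 46.1% for SLC39A10, 44.5% for SLC39A8 and 41.4% for SLC39A13, and it was lowest for SLC39A3 (33.1%) and SLC39A7 (29.5%). Differences between days made up 21.3% for SLC39A9, 18.3% for SLC39A1 and 16.2% for SLC39A8, beside a median of 5.56% over all genes.

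The animal means show the size of those stable differences. SLC39A6 was lowest in animal 43, at 55.6 CPM, and highest in animal 21. SLC39A11 ran from 15.1 CPM in animal 6 to 37.5 CPM in animal 29, and SLC39A14 from 12 CPM in animal 10 to 22.3 CPM in animal 18. For SLC39A6 the animal means had a median of 76.9 CPM in AAC, 67.5 in COMBO and 75.3 in INR, and for SLC39A14 of 18.9, 19.7 and 16.5 CPM. The AAC minus COMBO difference of SLC39A6 (log2 0.29, unadjusted p = 0.0243) and the COMBO minus INR difference of SLC39A14 (log2 0.24, unadjusted p = 0.0309) did not hold after adjustment in edgeR (adjusted p = 0.695 and 1). The SLC39A6 difference changed sign in the healthy steers alone.

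**Figure D5:**
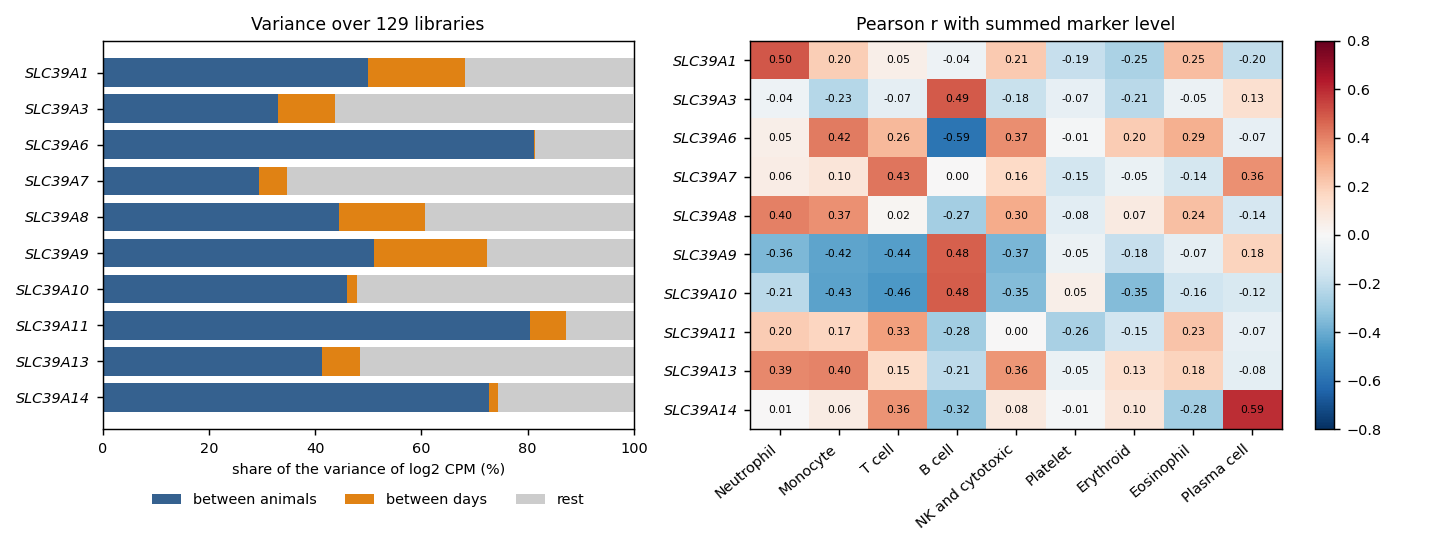
Left, share of the variance of log2 CPM over all libraries (x axis, percent) that lay between animals, between days and in the rest for each SLC39A gene. Right, Pearson r over all libraries between each gene and the summed CPM of each marker list, with the highest value for SLC39A14 and plasma cell markers (0.593) and the lowest for SLC39A6 and B cell markers (-0.586).

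The members did not vary as 1 group. Of the 45 pairs of members, 22 had a positive correlation of log2 CPM over all libraries, with a median r of -0.0255 and a range from -0.538 for SLC39A10 and SLC39A13 to 0.46 for SLC39A3 and SLC39A7. With marker sums, the 3 largest correlations in size over all libraries were those of SLC39A14 with plasma cell markers (0.593), SLC39A6 with B cell markers (-0.586) and SLC39A1 with neutrophil markers (0.498). After removal of animal means the largest were SLC39A1 with neutrophil markers (0.671), SLC39A14 with plasma cell markers (0.617) and SLC39A7 with T cell markers (0.577), and SLC39A6 with B cell markers was at -0.297. Correlations with the log2 library total lay between -0.0468 and 0.136. All of these describe libraries from 26 animals that share processing and depth scaling.

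For the members other than SLC39A13, the genes with the most similar levels over all libraries were found by Pearson correlation of log2 CPM. They were LAMTOR2 (0.722) and TMEM50A (0.696) for SLC39A1, STOML2 (0.833) and COX5A (0.831) for SLC39A3, and NYNRIN (0.695) and PCYOX1 (0.685) for SLC39A6. SLC39A7 was closest to EBP (0.79) and NDUFA11 (0.79), SLC39A8 to NFIL3 (0.652) and IFNGR1 (0.641), and SLC39A9 to GART (0.809) and CAPRIN1 (0.8). SLC39A10 was closest to ZNF318 (0.777) and PRKD3 (0.774), and SLC39A14 to ITGA6 (0.704) and ATP8B2 (0.704). Among these members, SLC39A11 had the weakest match, with BEND6 at 0.585 and MAST1 at 0.55.

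Other genes of zinc and manganese handling were read from lists beside the members. Of the other 4 ZIP genes, SLC39A2 and SLC39A5 passed the filter on low counts. SLC39A2 rose at days 13, 28 and 60 (log2 fold change 0.10, 0.09 and 0.07, adjusted p = 0.00489, 0.00679 and 0.0419), and SLC39A5 was not called on any day. SLC39A4, the intestinal zinc importer, had 0 to 6 counts per library, and SLC39A12 had 0 to 7.

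Of the 10 SLC30A zinc exporters, 6 passed the filter. SLC30A1, the exporter of the cell surface, fell at day 13 (log2 fold change -0.27, adjusted p = 6.81e-05), day 28 (-0.22, adjusted p = 0.000589) and day 60 (-0.12, adjusted p = 0.0948). SLC30A4 fell at days 28 and 60 (-0.44 and -0.34, adjusted p = 0.0154 and 0.0784), SLC30A9 rose at days 13, 28 and 60 (0.10, 0.09 and 0.07, adjusted p = 0.0101, 0.0168 and 0.0998), and SLC30A5 rose at days 45 and 60 (0.08 and 0.07, adjusted p = 0.0411 and 0.0705). Of the metallothioneins, which bind zinc, and their regulator MTF1, 5 of 6 passed the filter and 0 were called on any day in edgeR, where the smallest adjusted p was 0.182, for MT1E at day 28.

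All 7 genes of the manganese list passed the filter. SLC11A1, the metal transporter of phagocyte vesicles, fell on all 4 days (log2 fold change -1.18, -1.05, -1.33 and -1.46, with the largest adjusted p at 3.43e-07), and ARG1, a manganese-dependent arginase, rose on all 4 days (3.7, 2.82, 3.51 and 2.58). The median log2 fold change of the 5 monocyte markers on these days was -1.19, -1.12, -1.16 and -1.18, and that of the 7 red cell markers was 3.68, 2.74, 3.33 and 2.30. The part of these cells in the SLC11A1 and ARG1 changes was not tested. SOD2, the mitochondrial manganese superoxide dismutase, fell at days 13 and 28 (-0.29 and -0.40, adjusted p = 0.069 and 0.0074). ARG2, the other arginase, fell at day 28 (-0.34, adjusted p = 0.0496). SLC11A2, a divalent metal importer, fell at day 45 (-0.17, adjusted p = 0.00193), where TMEM165 rose (0.08, adjusted p = 0.0202), and ATP2C1, the Golgi calcium and manganese pump, rose at days 45 and 60 (0.10 and 0.10, adjusted p = 0.00347 and 0.00441). In all, 1 gene of the 7 rose and 2 fell at day 13, 1 rose and 3 fell at day 28, 3 rose and 2 fell at day 45, and 2 rose and 1 fell at day 60. No gene of these lists was called in a comparison of disease label, supplement or their change with time.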

How the data were processed

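Whole blood of 26 steers was sequenced as 129 stranded mRNA libraries (paired reads of 150 bases). The authors trimmed reads with Trimmomatic 0.39, mapped them to ARS-UCD1.3 with HISAT2 (2.1.1 in the submitters' processing notes), assembled transcripts with StringTie 2.2.0 and derived counts per gene with prepDE. The deposited values are these counts, unnormalized, for 32395 genes. They come from coverage and are not direct tallies of reads, and overlapping genes may share them.

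Counts were scaled by TMM and tested in R 4.3.3 with edgeR 4.0.16 (quasi-likelihood F-tests, common dispersion, filterByExpr, Benjamini-Hochberg over all tested genes in each comparison, threshold 0.1). Cattle were compared with 30 means of supplement, disease label and day (18937 genes) and with counts summed per animal (20640 genes). Days were compared with a term for each animal, because the same steers were bled each day. Deviations of libraries of the same animal had a median correlation of 0.371 (256 pairs), against -0.0101 between animals. CPM in the text use these factors, and correlations use log2 CPM with a prior count of 2.

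Alternatives were DESeq2 1.42.0, limma 3.58.1, RLE factors, trended dispersion, other filters, an FDR of 0.05, no animal term, subsets of steers or days, and each animal left out in turn. Leaving out the day 13 library of animal 50, and the comparison of disease labels within supplements with AAC animals left out, were chosen after seeing the data. Scripts were tested on simulated data. Figures used Python 3.11.15 and matplotlib 3.10.9.

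The 10 members, the lists beside them and the markers were chosen with earlier results of these data known. The text names all members, the 2 genes most correlated with each, and list genes that were called. The correlated genes of SLC39A13 are not reported here. Gene names and overlaps come from a RefSeq table of another assembly, so no coordinates are given. Steers of a group are separate animals.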

Additional observations from a re-analysis of the deposited data

Results flagged for a closer look

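Dixon's ratio was taken for each of the 10 genes in each group of 4 to 7 libraries, 240 times in all. In 14 of these (5.83%) a single library was marked, 10 of them high and 4 low. The ratio sets the gap to the nearest library against the full range of that gene, group and day. Where the other libraries lie close together, a marked value can be near them in size. About 1 in 20 of them would be marked so by chance if they were independent. They are not, since the same libraries serve all 10 genes and the same steers recur on the 5 days.

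Of these, 2 were values of SLC39A8. AAC healthy animal 34 was at 13.7 CPM at day 45 while the other 3 steers were at 1.99 to 3.18, and INR BRD animal 27 was at 5.4 CPM at day 60 while the others were at 1.09 to 2.83.

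INR BRD animal 40 gave 4 of the values. At day 13 SLC39A10 was at 91.7 CPM (others 46.2 to 65) and SLC39A14 at 12.4 CPM (others 17.1 to 19.3), and at day 28 SLC39A3 was at 17.3 CPM (others 9.98 to 12.8). In its day 60 library, which had low RNA integrity, SLC39A7 was at 86.6 CPM (others 55.2 to 66.2).

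In AAC BRD steers, SLC39A10 was at 29.9 CPM in animal 21 at day 0 (others 42.5 to 44.1), SLC39A7 at 51.2 CPM in the same animal at day 60 (others 64.8 to 66.8) and SLC39A13 at 26.62 CPM in animal 9 at day 60 (others 24.1 to 24.3). In AAC healthy steers, SLC39A7 was at 74.3 CPM in animal 48 at day 0 (others 64.7 to 66) and SLC39A9 at 89.98 CPM in animal 49 at day 28 (others 77 to 78.7). In COMBO healthy steers, animal 3 had SLC39A3 at 13.6 CPM at day 13 (others 9.48 to 9.59) and SLC39A14 at 20.42 CPM at day 28 (others 16.5 to 17.1), and animal 57 had SLC39A9 at 68.9 CPM at day 28 (others 77.6 to 79.4).

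The difference of BRD and healthy steers in SLC39A10 was not the same in the 3 supplements, by the edgeR test among supplements at day 0 (adjusted p = 0.000984) and over all days (adjusted p = 0.0716). At day 0 the log2 difference was -0.83 for AAC steers, 0.02 for COMBO steers and 0.25 for INR steers. Day 0 was the day of entry into the pens, so the day 0 values do not reflect the mineral feeds.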

How the results depend on the processing

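The 15 calls of single members over time were kept in 135 of 165 refits under other settings and in 344 of 390 refits without 1 animal. SLC39A1 at days 13, 28 and 60, SLC39A9 at days 45 and 60 and SLC39A11 at day 45 passed in all of them. The count of members called at day 13 was 3, and it was 1 in healthy animals only, with no filter on low counts, without the day 13 library of animal 50 and at an FDR of 0.05. At day 28 it was 3, and 1 in BRD animals only and at an FDR of 0.05. At day 45 it was 3, and 5 with DESeq2, with RLE size factors and with the stricter filter, and 2 in healthy animals only and in BRD animals only. The day 45 count was 4 without the day 13 library of animal 50 (5876 genes called) and 4 without the day 60 library of animal 40 (5900 genes). At day 60 it was 6, and 3 in healthy animals only. Without 1 animal the counts ranged from 1 to 4 at day 13, 1 to 4 at day 28, 3 to 5 at day 45 and 5 to 6 at day 60. With no replicate block (no animal term) the counts were 1 at day 13, 1 at day 28, 3 at day 45 and 4 at day 60. Over all genes, 6289, 6825, 5861 and 6318 were called on the 4 days, 2821, 4845, 2076 and 2976 in healthy animals only, 2684, 3287, 3595 and 3051 in BRD animals only, and 4213, 4702, 3746 and 4209 with no animal term. DESeq2 called 6413, 7027, 6016 and 6520 genes, RLE size factors 6361, 6858, 5833 and 6322, and the stricter filter 5401, 5881, 5138 and 5587. At day 13, 5954 genes were called with no filter and 5606 without the day 13 library of animal 50. Across all refits except that at an FDR of 0.05, the genes called ranged from 2684 to 6844 at day 13 and 3287 to 7695 at day 28. They ranged from 2076 to 6191 at day 45 and 2976 to 7123 at day 60. With no animal term SLC39A11 at day 60 lost its call (log2 fold change -0.18, adjusted p = 0.154). The cause of these changes was not tested, except that the subsets hold fewer steers.

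In the 19 comparisons between cattle, 682 of 689 refits had no member called. With AAC animals only, BRD against healthy called 2 members at day 0 (SLC39A10, and SLC39A13 at 0.30, adjusted p = 0.0389, where 9.46% of genes passed), 1 at day 28 (5.23%), 1 at day 45 (3.75%) and 1 over all days (4.28%). With BRD animals only, the supplement test called 2 members at day 0 (8.62% of genes), and AAC against INR (0.258%) and AAC against COMBO (1.4%) over all days called 1 each. The log2 difference of SLC39A6, AAC against COMBO, all days, turned to -0.0026 in healthy animals only (adjusted p = 0.995).

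Limits are the 3 to 7 steers in a group, the 26 steers in all, pens that differ with supplement, the lack of unsupplemented steers, day 0 as the single baseline, and the low counts of SLC39A8.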
